A study of Rattus norvegicus with 10 samples.

Results

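Hepatocytes take up bile acids, organic anions, drugs and nucleosides from sinusoidal blood through carriers in their basolateral membrane, and 8 genes for such carriers were compared between livers of 2 rat strains. They were Slc10a1, Slco1b2, Slco1a1, Slco1a4, Slco2b1, Slc22a7, Slc22a25 and Slc29a1. Each was found by its gene symbol in the deposited tables, and all 8 were present among 32883 genes. The strains were the Eisai hyperbilirubinemic rat (EHBR), a mutant of Sprague-Dawley (SD) stock without a working canalicular efflux pump Mrp2, and SD rats as controls. Poly(A) RNA was sequenced from whole liver of 5 EHBR and 5 SD males aged 5 weeks, numbered 1 to 5 in each strain and given no treatment that the labels name. Loss of Mrp2 and any other difference between the strains cannot be told apart here. Breeding, litters and housing are not in the labels, and p-values therefore measure only the spread among these 10 samples.

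Sinusoidal uptake is the first step by which the liver clears bile acids, bilirubin conjugates that have returned to blood, hormones and many drugs. The sodium-dependent carrier Ntcp (Slc10a1) takes up conjugated bile acids, and the organic anion transporting polypeptides (OATPs, Slco genes) take up a wide range of anions without sodium. Efflux pumps such as Mrp2 then move many of the same compounds, often after conjugation, across the opposite, canalicular membrane into bile. The SLC22 family holds organic anion and cation carriers, and the equilibrative nucleoside transporter Ent1 (Slc29a1) moves nucleosides and nucleoside drugs.

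Levels are given in TPM, a unit per transcript length with an equal sum in each sample, and means carry the SD with n = 5 per strain. Differences are EHBR minus SD on the scale of log2(TPM + 1), tested with limma. Adjusted p-values (Benjamini-Hochberg) cover 11083 genes that reached 1 TPM in 5 or more of the 10 samples. The added 1 makes these differences understate the change of genes with low TPM. Samples held 13.8 to 19.6 M reads assigned to genes. Abcc2, which encodes Mrp2, showed 10.1 to 17.6 TPM in EHBR and 60.0 to 271 TPM in SD, without overlap. The hepatocyte markers Alb, Apoa1, Ttr, Asgr1, Tf and Serpina1 were all detected, and their sum ranged from 136920 to 168100 TPM in SD and from 156870 to 180290 TPM in EHBR. In both strains, samples 4 and 5 stood apart from samples 1 to 3. This division was seen in the data and has no label, so differences are also given within each side of it. The median of the differences of all tested genes was 0.15, and it was -0.02 after every sample was centred on its own median. A difference near 0.15 is therefore the typical one on this scale.

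Among the 8 carriers, Slc22a25 rose, Slc29a1 fell and the other 6 did not pass the test. Of all tested genes, 3.82% were higher and 1.63% lower in EHBR, or 5.45% in either direction. The balance of directions over all genes turned with the scaling: 423 rose and 181 fell as reported, against 276 and 204 with FPKM, 314 and 290 after quantile normalization, 193 and 266 after median centring, and 190 and 241 with upper-quartile FPKM. The strains did not overlap for these same 2 carriers, against 8.47% of all tested genes. The median difference of the 8 was 0.13, beside 0.15 for all tested genes. All 8 passed the filter on low values, Slc22a25 with its 5 EHBR samples and 2 SD samples at or above 1 TPM. With a term for the division of the numbers, chosen after seeing the data, Slc10a1 passed as well (adjusted p = 0.0276, limma), and 16.9% of all tested genes then passed in either direction. Exact two-sided permutation tests of each carrier over all arrangements of the samples gave p = 0.00794 for Slc22a25 and for Slc29a1, the smallest such a test can give. Every gene whose strains do not overlap gets this p, so it only restates the lack of overlap. The same test gave 0.0159 for Slc10a1 and at least 0.111 for the other 5, with no adjustment for the 8 tests.

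**Figure D1:**
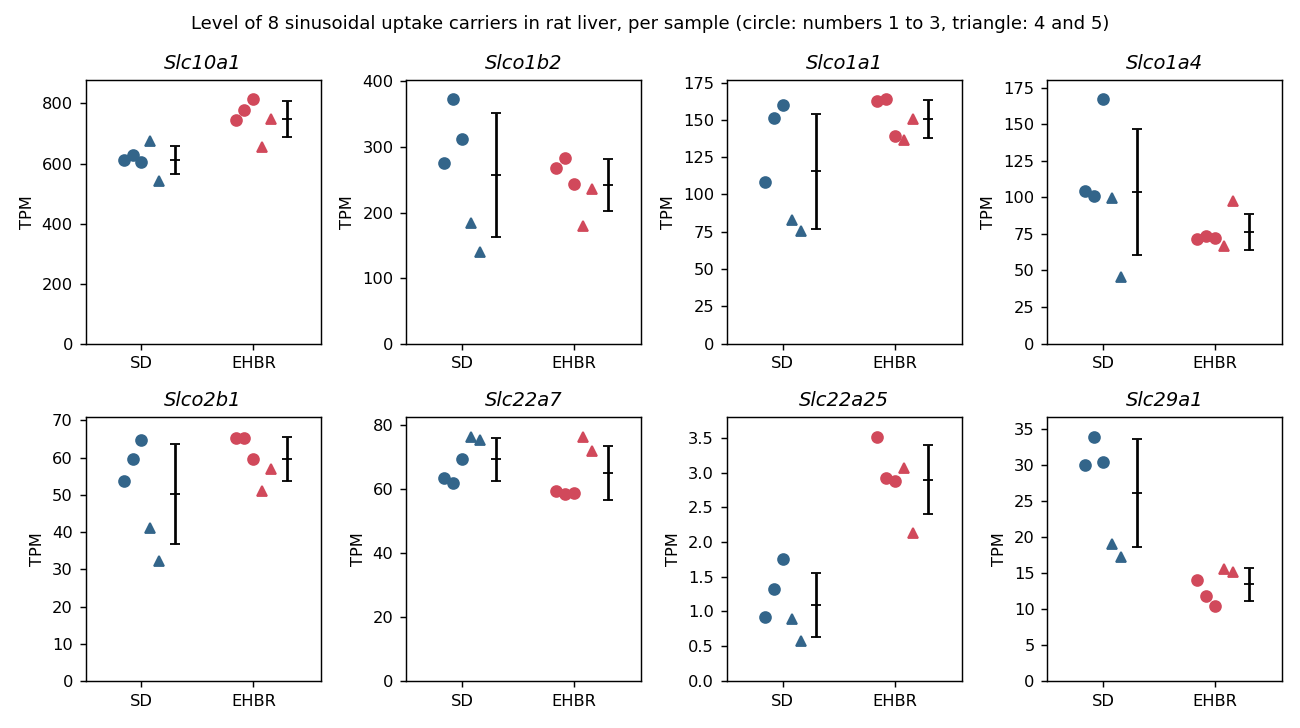
Level in TPM of the 8 carriers in each SD and EHBR sample (circles for numbers 1 to 3, triangles for numbers 4 and 5), with the mean and SD of 5 samples beside the points. Slc22a25 and Slc29a1 are the panels in which the strains do not overlap, and the SD samples numbered 4 and 5 lie below the other SD samples for all carriers shown except Slc10a1 and Slc22a7.

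Slc10a1 encodes Ntcp, the main sodium-dependent bile acid carrier of hepatocytes, and had the highest level of the 8. It lies on the minus strand of chromosome 6 from 104617730 to 104631355 in rn6. The levels in SD were 611, 628, 604, 675 and 542 TPM, and those in EHBR were 746, 777, 814, 654 and 748 TPM. Of the EHBR samples, 4 lay above every SD sample, and only EHBR sample 4 fell within the SD range. The mean was 612 ± 47.7 TPM in SD and 748 ± 59.0 TPM in EHBR, a difference of 0.29 (SE 0.09, 95% interval 0.09 to 0.49, adjusted p = 0.0938). Samples 1 to 3 alone gave 0.34 (adjusted p = 0.0266), and samples 4 and 5 gave 0.21 (adjusted p = 0.365). It was 0.12 after median centring (adjusted p = 0.681).

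Slco1b2 encodes Oatp1b2, the liver-specific OATP of rodents that takes up bilirubin conjugates, bile acids and statins. Its gene model is on the plus strand of chromosome 4 from 175814118 to 175881768. SD samples 1 to 5 showed 275, 373, 312, 184 and 139 TPM, and EHBR samples 1 to 5 showed 268, 283, 244, 179 and 235 TPM. The SD samples spread more widely, and all EHBR values lay within their range. The means were 257 ± 94.7 and 242 ± 40.1 TPM, and the difference was -0.02 (SE 0.24, interval -0.55 to 0.52, adjusted p = 0.975). Its sign differed within the division of the numbers, with -0.26 among samples 1 to 3 and 0.35 among samples 4 and 5. The difference between these values was 0.62 (adjusted p = 0.202, limma interaction term).

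Slco1a1 encodes Oatp1a1, an OATP of rodent liver and kidney that carries steroid conjugates and bromosulfophthalein. It lies on the minus strand of chromosome 4 from 176158640 to 176231344. Its levels were 108, 151, 160, 82.9 and 75.4 TPM in SD and 162, 164, 139, 137 and 151 TPM in EHBR. All EHBR samples lay close together, near or just above the top of the SD range, and SD samples 4 and 5 were the lowest. The means were 116 ± 38.6 and 150 ± 12.7 TPM, with a difference of 0.44 (SE 0.20, interval 0.01 to 0.87, adjusted p = 0.234). Among samples 1 to 3 the difference was 0.16 (adjusted p = 0.588), and among samples 4 and 5 it was 0.85 (adjusted p = 0.0361). These values did not differ from each other at the threshold (0.69, adjusted p = 0.155, interaction term).

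Slco1a4 encodes Oatp1a4, which carries digoxin and bile acids in liver and is also known from the blood-brain barrier. The gene is on the minus strand of chromosome 4 from 175969549 to 176026163. The levels were 104, 101, 167, 99.9 and 45.4 TPM in SD and 71.6, 73.5, 72.1, 66.8 and 97.6 TPM in EHBR. SD sample 3 was the highest and SD sample 5 the lowest of the 10, and EHBR sample 5 stood above the other 4 of its strain. The means were 104 ± 43.1 and 76.3 ± 12.2 TPM, with a difference of -0.34 (SE 0.27, interval -0.92 to 0.25, adjusted p = 0.488). It was -0.14 without SD sample 3 and -0.60 without SD sample 5. The value was -0.73 among samples 1 to 3 (adjusted p = 0.0609), while samples 4 and 5 gave 0.26 (adjusted p = 0.659).

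Slco1b2, Slco1a4 and Slco1a1 lie in 1 cluster on chromosome 4, with 87.8 kb between the first and the second and 132 kb between the second and the third. The ratio of Slco1a1 to Slco1a4 in TPM was 1.04, 1.50, 0.957, 0.830 and 1.66 in the SD samples and 2.27, 2.23, 1.93, 2.04 and 1.54 in the EHBR samples. All 5 EHBR ratios were above 4 of the 5 SD ratios, and the ranges overlapped through SD sample 5 and EHBR sample 5. Because these neighbouring genes are close paralogs whose order by level was not the same in every SD sample, the 250 bases before each start are shown, on the minus strand at chr4:176681993-176682242 for Slco1a1 and chr4:176495847-176496096 for Slco1a4. These positions are in GRCr8, from RefSeq, and cannot be set beside the rn6 positions of the gene models. Capitals mark runs of at least 8 bases that are aligned to identical bases of the other gene.
Slco1a1: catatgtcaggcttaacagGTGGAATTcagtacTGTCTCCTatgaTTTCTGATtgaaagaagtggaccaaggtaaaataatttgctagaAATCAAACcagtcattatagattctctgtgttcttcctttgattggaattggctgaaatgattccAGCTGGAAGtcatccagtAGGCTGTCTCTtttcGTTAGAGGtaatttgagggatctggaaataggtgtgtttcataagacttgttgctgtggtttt
Slco1a4: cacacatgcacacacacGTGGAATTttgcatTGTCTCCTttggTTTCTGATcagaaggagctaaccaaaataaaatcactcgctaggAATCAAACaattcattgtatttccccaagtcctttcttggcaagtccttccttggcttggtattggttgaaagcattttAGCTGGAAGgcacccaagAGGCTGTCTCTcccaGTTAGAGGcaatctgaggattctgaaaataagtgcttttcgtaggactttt
Aligned end to end, the sequences were identical at 176 of 265 columns, or 66.4%, and capitals cover 60 bases in each. The same stretch of Slco1b2 was 47.6% identical to that of Slco1a1 and 49.1% to that of Slco1a4.

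Slco2b1 encodes Oatp2b1, an OATP found in many tissues that carries steroid sulfates and drugs. The gene spans the minus strand of chromosome 1 from 164623599 to 164671577. Its levels were 53.6, 59.7, 64.7, 41.0 and 32.3 TPM in SD and 65.3, 65.3, 59.7, 51.0 and 56.9 TPM in EHBR. In both strains samples 4 and 5 were the lowest, and the gap was wider in SD. The means were 50.3 ± 13.4 and 59.6 ± 6.02 TPM, with a difference of 0.28 (SE 0.18, interval -0.10 to 0.66, adjusted p = 0.38). It was 0.14 without SD sample 5. Samples 1 to 3 gave 0.10 (adjusted p = 0.594), and samples 4 and 5 gave 0.55 (adjusted p = 0.09).

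**Figure D2:**
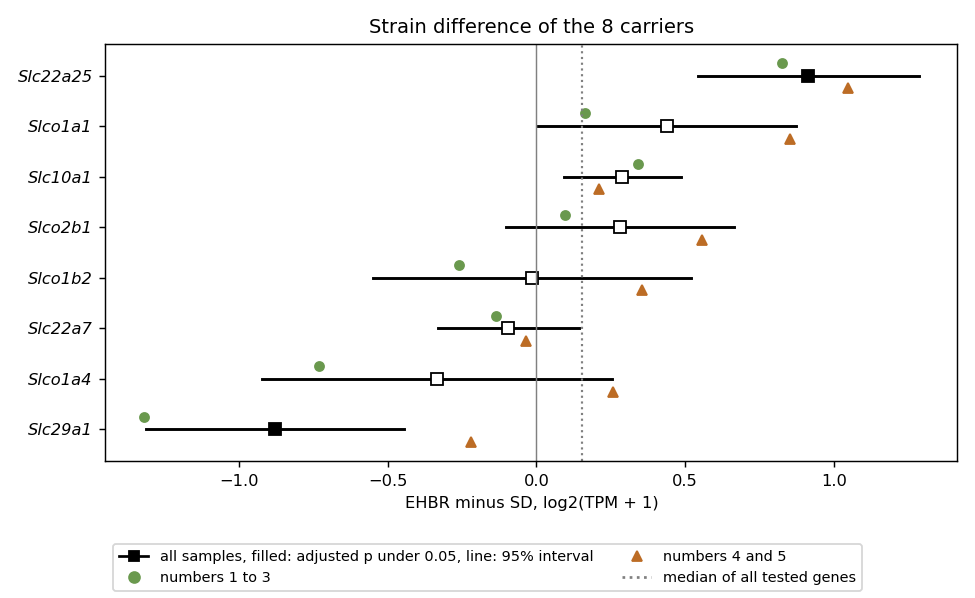
Difference of each carrier between strains (EHBR minus SD, log2(TPM + 1)) with its 95% interval over all 10 samples, and the differences among samples 1 to 3 (circles) and 4 and 5 (triangles). Filled squares mark Slc22a25 at 0.91 and Slc29a1 at -0.88, and the dotted line marks the median difference of all tested genes at 0.15.

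Slc22a7 encodes Oat2, a hepatic organic anion carrier, and showed the smallest spread of the 8 on the log2 scale. It lies on the plus strand of chromosome 9 from 16924520 to 16931766. The levels were 63.4, 62.0, 69.5, 76.3 and 75.5 TPM in SD and 59.6, 58.6, 58.8, 76.4 and 71.8 TPM in EHBR. Samples 4 and 5 were higher than samples 1 to 3 in both strains, the reverse of Slco2b1. The means were 69.3 ± 6.64 and 65.0 ± 8.45 TPM, and the difference was -0.09 (SE 0.11, interval -0.33 to 0.14, adjusted p = 0.627). Leaving out any 1 sample gave -0.15 to -0.06. With both the term for the numbers and median centring, added after the data were seen, it was -0.26 (adjusted p = 0.0246).

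Slc22a25, an SLC22 carrier whose RefSeq synonym is Ust1r, rose in EHBR from the lowest level of the 8. Its gene model spans the minus strand of chromosome 1 from 224596887 to 224698514. SD samples showed 0.927, 1.32, 1.76, 0.895 and 0.574 TPM, and EHBR samples 3.52, 2.92, 2.87, 3.07 and 2.13 TPM. Every EHBR sample lay above every SD sample. The mean was 1.09 ± 0.455 TPM in SD and 2.90 ± 0.502 TPM in EHBR, a 2.65-fold higher mean TPM, and the difference on the log2(TPM + 1) scale was 0.91 (SE 0.17, interval 0.54 to 1.28, adjusted p = 0.00875). It was 0.82 among samples 1 to 3 (adjusted p = 0.0367), 1.05 among samples 4 and 5 (adjusted p = 0.0564) and 0.74 after median centring (adjusted p = 0.00436). With 0.1 in place of the added 1 it was 1.40, and with 5 it was 0.38. These levels rest on few reads, 22 to 45 in each SD sample and 49 to 89 in each EHBR sample, or 1.89 ± 0.678 and 4.70 ± 0.788 reads per M.

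Ust5r and UST4r, which neighbour Slc22a25, belong to the same rodent group of SLC22 genes, and their values were chosen for display after they had been seen. Ust5r, 63.7 kb away, had a far higher level than Slc22a25 and fell. It showed 153, 144, 158, 132 and 113 TPM in SD and 80.7, 61.0, 80.9, 71.2 and 99.3 TPM in EHBR, without overlap. Its difference was -0.83 (SE 0.14, adjusted p = 0.00469). Samples 1 to 3 gave -1.03 (adjusted p = 0.00387), and samples 4 and 5 gave -0.53 (adjusted p = 0.125). UST4r, 68.4 kb beyond Ust5r, showed 7.91, 62.6, 46.4, 40.2 and 25.2 TPM in SD and 66.2, 77.6, 56.0, 73.4 and 51.8 TPM in EHBR. SD sample 1 was far below the others, the strains overlapped, and the difference of 1.07 (SE 0.43) did not pass (adjusted p = 0.182). It was 0.62 without SD sample 1 (adjusted p = 0.175). Slc22a8, the organic anion carrier Oat3, lies 102 kb on the other side and is described with its family. Before their starts, Ust5r and UST4r were 86.6% identical over 250 bases, and Slc22a25 was 55.6% and 55.5% identical to them. The sources used here do not give how reads that match more than 1 of these related genes were counted, and the split of reads among them is uncertain.

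**Figure D3:**
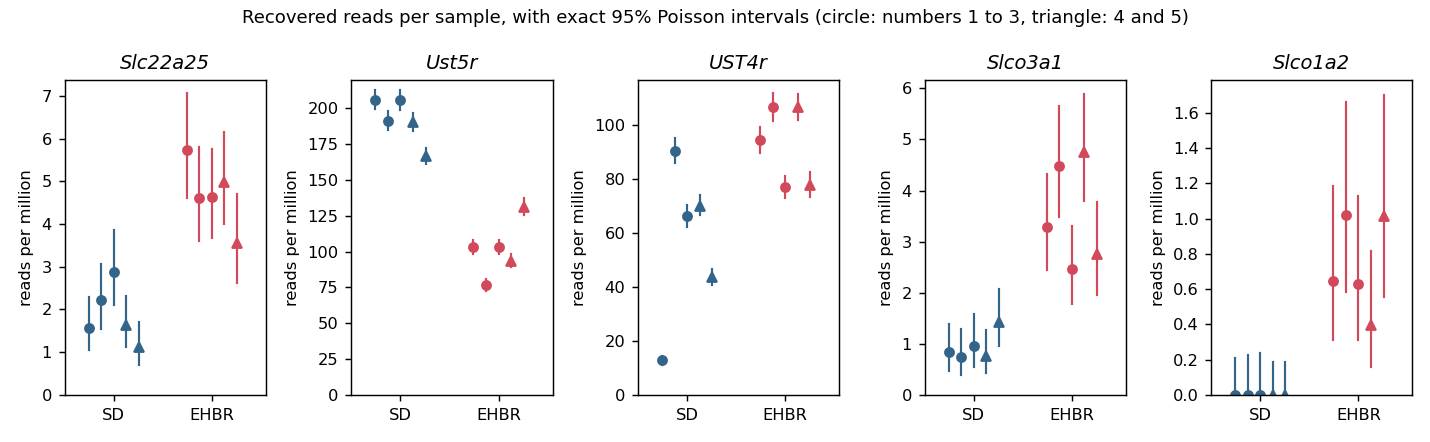
Reads per M library reads recovered from the deposited values, per sample, with exact 95% Poisson intervals that cover counting error only. Slc22a25, Ust5r and UST4r neighbour each other, Slco3a1 rests on 12 to 28 reads per SD sample and 38 to 84 per EHBR sample, and Slco1a2 had 0 reads in every SD sample.

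Slc29a1 encodes Ent1 and fell in EHBR. It lies on the plus strand of chromosome 9 from 17784468 to 17799005, 853 kb from Slc22a7. SD samples showed 30.0, 34.0, 30.5, 19.0 and 17.2 TPM, and EHBR samples 14.1, 11.8, 10.4, 15.6 and 15.2 TPM. Every SD sample lay above every EHBR sample, but SD samples 4 and 5 were close to EHBR samples 4 and 5. The mean fell from 26.1 ± 7.53 TPM in SD to 13.4 ± 2.23 TPM in EHBR, so that SD was 1.95-fold higher, and the difference was -0.88 (SE 0.20, interval -1.31 to -0.45, adjusted p = 0.0239). It was -1.32 among samples 1 to 3 (adjusted p = 0.00148), while samples 4 and 5 gave -0.22 (adjusted p = 0.330), and the difference between these values was 1.10 (adjusted p = 0.0515, interaction term). The call was lost without EHBR sample 1, 2 or 3 (adjusted p = 0.0505, 0.0698 and 0.0697) and without SD sample 1 or 3 (0.0637 and 0.0513). Reads numbered 511 to 757 per SD sample and 238 to 372 per EHBR sample, so counting error was small beside the spread between samples.

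The 250 bases before the starts of the genes that passed the test are shown because these are the carriers whose level changed. They are at chr1:214862341-214862590 on the minus strand for Slc22a25 and at chr9:22896849-22897098 on the plus strand for Slc29a1, both in GRCr8 from RefSeq. Capitals mark GC boxes (GGGCGG on either strand). The start that RefSeq's table uses for Slc22a25 lies inside the span of that gene.
Slc22a25: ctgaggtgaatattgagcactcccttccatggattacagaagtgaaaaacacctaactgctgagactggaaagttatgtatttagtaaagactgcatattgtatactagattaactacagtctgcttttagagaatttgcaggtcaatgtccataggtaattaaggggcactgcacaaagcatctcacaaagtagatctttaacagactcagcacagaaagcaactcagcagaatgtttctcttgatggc
Slc29a1: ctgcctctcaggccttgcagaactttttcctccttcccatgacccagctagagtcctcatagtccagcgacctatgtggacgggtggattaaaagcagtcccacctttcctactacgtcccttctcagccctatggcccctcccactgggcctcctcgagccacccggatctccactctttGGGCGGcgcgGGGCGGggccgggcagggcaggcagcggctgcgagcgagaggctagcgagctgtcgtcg
The Slc29a1 stretch holds 2 GC boxes and 63.6% G and C, and the Slc22a25 stretch holds 0 GC boxes and 39.2% G and C, beside a median of 51.2% over 33469 windows. In windows of 300 bases that also take in 50 bases after the start, GGGCGG occurred for Slc22a7 and Slc29a1 among the 8 carriers and in 33.1% of all windows. The GAS element TTCNNNGAA, named for binding STAT factors, occurred for Slco1b2 and Slco2b1 and in 8.87% of all windows. TATAAA occurred for Slco1b2 and in 14.2%. GGGCGG and TATAAA were chosen after the sequences had been seen, both strands were searched, and a match is a description of letters only. None of the 8 windows held DR1 (AGGTCANAGGTCA, 0.0538% of all windows) or DR4 (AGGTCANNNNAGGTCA, 0.00598%).

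By mean TPM, both strains had the same order of the 8 carriers. It ran from Slc10a1 through Slco1b2, Slco1a1, Slco1a4, Slc22a7, Slco2b1 and Slc29a1 to Slc22a25. Slc10a1 exceeded Slco1b2 in every sample, by 2.38-fold in SD and 3.09-fold in EHBR by mean. Slco1a1 and Slco1a4 were not separated in SD, where Slco1a1 was the higher in 3 of 5 samples and by 1.12-fold on average. In EHBR Slco1a1 was higher in 5 of 5 samples, by 1.97-fold, with no overlap of the ranges. Slco1a4 exceeded Slc22a7 in 4 of 5 samples of each strain, and the ranges overlapped in both. Slc22a7 was above Slco2b1 in 5 of 5 SD samples and in 2 of 5 EHBR samples, so their order in EHBR was within the spread. Slc29a1 was above Slc22a25 in every sample, by 23.9-fold in SD and 4.63-fold in EHBR.

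Further carriers of the same families were taken from a list of 43 symbols, of which 38 matched, in 39 rows of the table. Of these rows 14 passed the filter, 1 was higher, 0 were lower and 13 did not pass the test, while 8 rows were at 0 in every sample. The median difference of the 14 was 0.02. Ust5r and UST4r, described above, are not on this list and not in these counts. The share called higher, 1 of 14, stands beside 3.82% of all tested genes. The OATP Slco3a1, a widely expressed carrier of prostaglandins and thyroid hormone, was the member that rose. It showed 0.403, 0.357, 0.475, 0.340 and 0.620 TPM in SD and 1.65, 2.30, 1.24, 2.29 and 1.30 TPM in EHBR. Every EHBR sample was above every SD sample, and the gene passed the filter through EHBR alone. Its difference was 0.92 (SE 0.15, interval 0.60 to 1.25, adjusted p = 0.00398).

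No listed gene of the other families passed. Ust5r, the SLC22 gene that fell (-0.83, adjusted p = 0.00469, limma), is not on the list. By the mean over both strains, Slc10a7 was the most abundant of 3 tested genes of SLC10 and SLC51. It was at 4.64 ± 0.581 TPM in SD and 6.66 ± 0.870 TPM in EHBR, without overlap (difference 0.44, interval 0.16 to 0.72, adjusted p = 0.0742), and passed once the division of the numbers was fitted (adjusted p = 0.0287). Among 7 further listed SLC22 genes, Slc22a18 had the highest such mean, at 205 ± 45.1 and 211 ± 22.1 TPM (0.06, interval -0.25 to 0.36, adjusted p = 0.836). Slc22a8 was at 224 ± 48.3 TPM in SD and 169 ± 8.63 TPM in EHBR, a difference of -0.38 (adjusted p = 0.147) that passed after median centring at -0.55 (adjusted p = 0.0337). The concentrative nucleoside transporter Slc28a2 was the more abundant of 2 tested nucleoside carriers beside Slc29a1, at 13.6 ± 3.27 and 14.1 ± 4.61 TPM (0.02, interval -0.43 to 0.48, adjusted p = 0.956). Slc22a8 was named after its values had been seen.

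**Figure D4:**
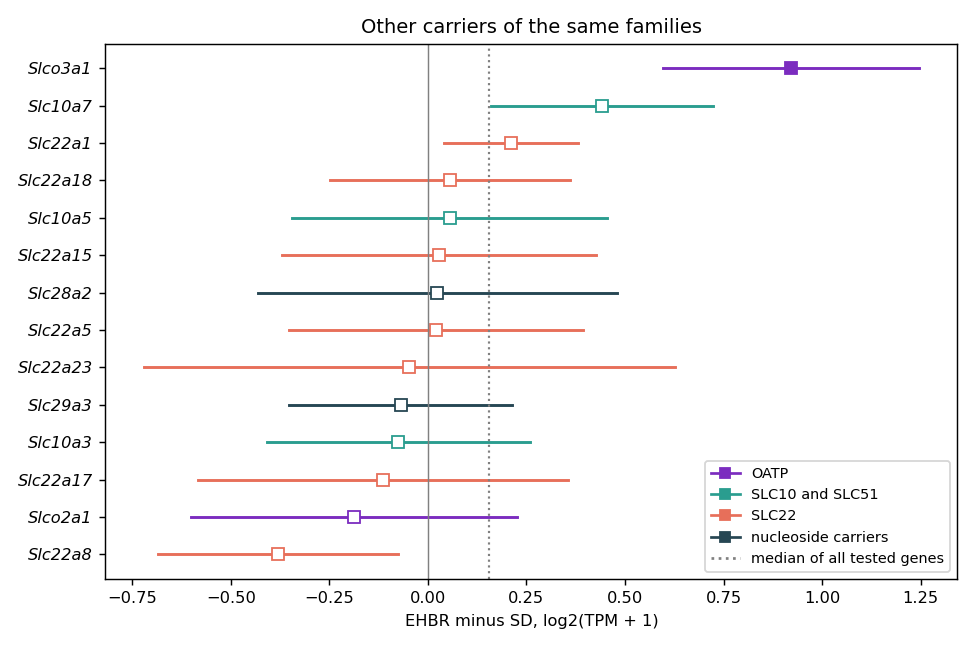
Difference between strains (EHBR minus SD, log2(TPM + 1)) with 95% intervals for the 14 tested carriers of the list, coloured by family. The list leaves out Ust5r and UST4r. Slco3a1 at 0.92 is the filled square, the dotted line marks the median difference of all tested genes at 0.15, and Slc22a8 lies lowest at -0.38.

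Slco1a2, which lies 214.5 kb beyond Slco1a1 in the same cluster on chromosome 4, was too low to be tested and was named after its values had been seen. It had 0 reads in all 5 SD samples, out of 88.8 M. The EHBR samples held 10, 16, 11, 7 and 14 reads, 58 of 80.1 M in all. Set against a limit of 3 reads over the SD samples together, the pooled EHBR value was 21.4-fold higher per M reads. This fold leaves out the counting error of the 58 EHBR reads and the spread between samples, so it is not a lower bound. Of 18036 genes with reads, 2 had 0 reads in every SD sample and at least 5 in each EHBR sample, and 2 showed the opposite. RefSeq lists the gene ID that the files give for this symbol as Slco1a5, a paralog of Slco1a1 and Slco1a4, so how its reads were assigned is uncertain.

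The transcription factors, hormone receptors and scaffold proteins known to act on carrier genes or their products were also read from the same test. Of 29 listed symbols 28 were tested, 1 was higher and 0 were lower, with a median difference of 0.15. That 1 of 28 is close to the 3.82% higher among all tested genes. The prolactin receptor gene Prlr was the one that rose. It showed 0.173, 8.23, 0.984, 11.2 and 5.87 TPM in SD and 35.0, 36.2, 26.8, 31.6 and 31.5 TPM in EHBR, without overlap. Its difference was 2.88 (SE 0.56, adjusted p = 0.0108), and the call was lost with upper-quartile FPKM (adjusted p = 0.106). Samples 1 to 3 gave 3.59 (adjusted p = 0.0244), and samples 4 and 5 gave 1.83 (adjusted p = 0.0361). The growth hormone receptor gene Ghr differed by -0.06 (adjusted p = 0.824). The hepatocyte factor gene Hnf4a differed by 0.21 (adjusted p = 0.641). The bile acid receptor gene Nr1h4 (FXR) differed by 0.47 and its target Nr0b2 (SHP) by 0.95 (adjusted p = 0.225 and 0.458). The xenobiotic receptor genes Nr1i2 (PXR) and Nr1i3 (CAR) differed by 0.58 and -0.65 (adjusted p = 0.188 and 0.228). These 6 did not pass over all samples. Among samples 1 to 3, Nr1i2 passed at 0.84 (adjusted p = 0.0202) and Nr1i3 at -0.60 (adjusted p = 0.0261). Both passed with the term for the numbers (0.0198 and 0.0379), beside 16.9% of all tested genes. The listed genes Ppara and Rdx passed with the term as well (adjusted p = 0.0273 and 0.0492). After median centring neither Nr1i2 nor Nr1i3 passed (adjusted p = 0.311 and 0.0862). Nr1h4 passed among samples 4 and 5 at 0.92 (adjusted p = 0.049). The relation of these genes to the carriers was not tested.

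Markers of other liver cells were read in the same way, since in whole liver fewer cells of a type and less RNA per cell cannot be told apart. The counts below stand beside 3.82% of all tested genes that were higher and 1.63% that were lower. Of 7 tested sinusoidal endothelial markers 3 rose, Stab2 by 0.92, Stab1 by 0.73 and Kdr by 0.66, and the summed level of the list was 61.9 to 83.8 TPM in SD and 90.7 to 120 TPM in EHBR. All 7 differences were positive, with a median of 0.63. After median centring Stab2 still passed (adjusted p = 0.0486), and Stab1 and Kdr did not (0.0738 and 0.0755). With the term for the numbers, Lyve1 and Fcgr2b passed as well (adjusted p = 0.016 and 0.0189), beside 16.9% of all tested genes. Of 9 periportal hepatocyte markers 2 rose, Ass1 by 0.80 and Gls2 by 0.63, with sums of 5954 to 7279 and 8068 to 11495 TPM. All 9 differences were positive, with a median of 0.63. Centring kept the call of Ass1 (adjusted p = 0.0322) and not that of Gls2 (0.155). With the term, Hal, Sds, Arg1 and Cps1 passed as well (adjusted p = 0.0282, 0.0039, 0.00274 and 0.00672). The hepatocyte marker Asgr1 fell by 0.33 (adjusted p = 0.018, and 0.0592 after centring), and the other 5 of that list did not pass. Of those, Tf passed with the term, as higher in EHBR (adjusted p = 0.00992). In the fit without centring or the term, no marker passed among 8 tested for Kupffer cells, 7 for stellate cells, 2 for cholangiocytes, 3 for erythroid cells and 8 for pericentral hepatocytes. Among samples 1 to 3, Glul (-0.54, adjusted p = 0.0109) and Epcam (-0.45, 0.0349) were lower and Alas2 (1.01, 0.0458) was higher. Among samples 4 and 5, Oat (1.11, 0.0426) and Cyp1a2 (0.86, 0.0402) were higher and Rhbg (-1.29, 0.0404) was lower. The interaction term of Glul passed (0.84, adjusted p = 0.0388), as 1 of 30 genes over all tested. The cholangiocyte sums were 15.3 to 17.5 TPM in SD and 12.3 to 13.9 TPM in EHBR, without overlap. Most of these sums came from Epcam, at 13.0 TPM in SD and 9.90 TPM in EHBR by mean (adjusted p = 0.12), while Krt19 was at 1.49 and 1.69 TPM. Epcam passed as lower in EHBR after centring (adjusted p = 0.0162) and with the term (0.0305). None of the matched markers was at 0 in all samples. The part of these shifts in the values of Slc22a25, Slc29a1 and Slco3a1 was not tested.

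Around the carriers, tested genes within 1 Mb were also counted. Slco1b2, Slco1a4 and Slco1a1 each had 10 such genes around them, a count that takes in the other carriers of this cluster. In each of these windows Ldhb and Abcc9 fell and Gys2 rose. Around Slc22a25, Slc3a2 rose and Ust5r fell among 31. Klc4 rose and Mrpl14 fell among 39 around Slc22a7, a window that also holds Slc29a1, and Mrpl14 was the 1 call among 25 around Slc29a1. Slco2b1 had 2 calls among 17 and Slc10a1 had 0 among 12. Beside these stands the 5.45% of all tested genes that passed.

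For each carrier, the genes with the most similar pattern were found by the root-mean-square difference from it over the 10 samples, on the log2(TPM + 1) scale with each gene's mean subtracted. The closest to Slc22a25 were Srgap2 (0.11) and Rnf152 (0.13), beside a spread of 0.51 for Slc22a25 about its own mean. The closest to Slc29a1 were Idi1 (0.16) and Rgs9bp (0.19), beside 0.54 for Slc29a1. Slc10a1 was most like Nars1 (0.07) and Gcdh (0.08), and Slc22a7 most like Ptpa (0.06) and Polr2g (0.08). Among the OATPs, Slco1a1 was most like Ehmt1 (0.08) and Zdhhc15 (0.09), Slco1b2 most like Ahsa2 (0.09) and Ankh (0.10), and Slco2b1 most like Mapk6 (0.05) and Gtf2i (0.06). Slco1a4 had the loosest match, with Rnf39 (0.19) and Iqcc (0.21). These are the best of 11083 genes by choice and are given as a description of these 10 samples.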

How the data were processed

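Directional poly(A) libraries were made from TRIzol-extracted RNA of 10 livers, per the labels' protocols. Without order or settings, the submitters' processing notes list featureCounts 1.6.3, HISAT2 2.1.0, Trimmomatic 0.38, FastQC 0.11.7 and rn6. The sources used here do not say whether strand was used in counting. The authors deposited 3 tables: TPM, FPKM and upper-quartile FPKM, a coverage signal scaled to each sample's upper quartile. Strain and number were read from the titles.

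Differences in log2(TPM + 1) were tested with limma 3.58.1 in R 4.3.3 (trend, two-sided, strain as 1 factor, threshold 0.05 after Benjamini-Hochberg adjustment over 11083 genes). In values simulated for EHBR against SD over 11083 genes, the test called 20% of 50 genes with a true log2 difference of 0.5, 76% at 1, 96% at 2 and 98% at 3, with 7 false calls. Whole reads were recovered from upper-quartile FPKM for 18036 genes within a tolerance of 0.0002 reads, and their sums were 99.98% or more of the totals implied by FPKM. A gene length was accepted only where all values came out whole, so that the reads are whole is built in. The implied totals do not use these lengths, but both they and the sums use the same upper-quartile count. The recovered reads gave depth, Poisson intervals and an added alternative with voom. For the 8 carriers, TPM and FPKM differed by at most 0.08 on the log2 scale relative to the sample median.

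The 8 carriers, gene lists and tests were chosen with earlier results of these data known. All 8 were named. Other genes were named by rule: Abcc2, every listed gene that passed (or the most abundant of a family where none did), 8 regulators whatever their values (1 is not reported here), up to 3 passing markers per list, and the 2 genes most like each carrier. A permutation p adjusted over the 8 carriers alone was planned and is not given. Promoters came from RefSeq (GRCr8), in which 8 of 8 carriers matched. No reference genome was used here. The same-numbered samples of the strains correlated at 0.07 to 0.29 in their deviations from the strain mean, with 1 pair under 0.1, so the numbers were not taken to pair animals.

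Alternatives were an exact rank-sum test, sample weights, a robust fit, median centring, quantile normalization, FPKM and upper-quartile FPKM, pseudocounts of 0.1 and 5, filters of none or of a mean of 5 TPM, each side of the division of the numbers, a term for it, the replicate block and leaving out each sample. The voom fit, the interaction term and the term with centring were chosen after seeing the data. Tables and figures were made with matplotlib 3.10.9, scipy 1.17.1, numpy 2.4.6 and pandas 2.3.3 in Python 3.11.15.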

Additional observations from a re-analysis of the deposited data

Results flagged for a closer look

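The level of Slco1a4 in EHBR sample 5 was 97.6 TPM, far above the other 4 EHBR samples. The gap to the next sample was 0.780 of the range of the strain, beyond Dixon's 95% critical value for groups of 5. It was the 1 such value in 16 groups examined (8 carriers in 2 strains), and chance gives about 1 in 20.

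Slco1a2, which was too low to be tested, held 58 reads over the EHBR samples and 0 over the SD samples.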

How the results depend on the processing

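The 2 calls among the carriers kept their direction under every alternative that gave them a value. The count of carriers that rose, 1 as reported, was 0 with the exact rank-sum test and with a mean of at least 5 TPM, which drops Slc22a25 and Slco3a1. It was 2 among samples 1 to 3, with sample weights and with the term for the numbers, each time by Slc10a1. Among samples 4 and 5 it was 1, by Slco1a1 in place of Slc22a25. The count that fell, 1 as reported, was 0 with the rank-sum test and among samples 4 and 5, 2 with the term and centring together, and 0 to 1 when 1 sample was left out. Of the wider list, the 1 gene that rose became 0 with FPKM and with a mean of at least 5 TPM, whose filters left Slco3a1 out. It also became 0 with the rank-sum test and samples 4 and 5. The count was 2 with no filter (Slco1a2 added) or with sample weights, and 3 with the term. The 0 that fell became 1 with median centring, samples 1 to 3, sample weights and upper-quartile FPKM, 2 with the term and centring, and 0 to 1 when 1 sample was left out (1 without SD sample 4). The rank-sum test called 0 of all genes, with 1756 at an unadjusted p under 0.05. The sign reversed for Slco1a4 among samples 4 and 5 (0.26), and for Slco1b2 among samples 4 and 5 (0.35) and when 1 sample was left out (-0.21 to 0.14). Apart from genes left out by a filter, the cause of these changes was not tested.

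Over all genes, the 423 that rose became 276 with FPKM, 193 with median centring, 190 with upper-quartile FPKM, 719 with sample weights, 1506 with the term, and 276, 243 and 269 without EHBR sample 1, 2 and 3. The 181 that fell became 290 after quantile normalization, 292 with sample weights, 112 among samples 4 and 5, 372 with the term and 703 with the term and centring.

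With the replicate block, 639 genes rose and 222 fell, the carriers gave 1 and 1, and the adjusted p of Slc29a1 was 0.0498. The labels do not say whether the numbers pair the samples, and 4 of 10 samples correlated best with their own number. Between strains, samples on the same side of the division correlated at 0.05 to 0.40, and those on opposite sides at -0.37 to -0.09. Depth limits Slc22a25, Slco3a1 and Slco1a2, which rest on fewer than 100 reads per sample.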
